A study of Rattus norvegicus with 6 samples.

Results

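NF-kappaB is the transcription factor family through which cells turn inflammatory and mechanical signals into changes of transcription, and 10 genes of its core were followed here in rat aortic smooth muscle cells: 4 subunits (Nfkb1, Nfkb2, Rela and Relb), the inhibitors Nfkbia, Nfkbib and Tnfaip3, the kinase Ikbkb and the ubiquitin ligases Birc2 and Birc3. They were chosen by symbol: every probe set that the platform annotation pairs with 1 of these symbols alone was taken, which gave 11 probe sets of the 31042 on the array that are not Affymetrix controls. Ikbkb had 2 probe sets and each other gene 1. Of the 11, 10 were bright enough to be tested, 1 for each gene, and the second Ikbkb probe set was not. None of the 10 tested had a group mean under the limit for testing.

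Expression was measured with Affymetrix rat arrays in 3 static cultures and in 3 cultures under laminar flow, numbered 1 to 3 so that each sheared culture has a static partner. All cultures were aortic smooth muscle cells of passage 3 to 5, grown in medium with 10% fetal calf serum and then kept for 24 h in 0.1% bovine serum albumin without serum; neither the rat strain nor an age is given. Sheared cells were confluent monolayers held between parallel plates under flow of 14 dyn per square centimetre, an arterial level, during 24 h, and no other dose or time was sampled. Anything else that differs between a flow chamber and a static incubation goes with the groups. The labels do not say whether a pair shares an animal, a culture or a day, so the p-values reflect only how far these cultures spread, which may be technical.

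In unstimulated cells the NF-kappaB dimers are held in the cytoplasm by IkappaB proteins. Receptors for cytokines or microbial products switch on the IkappaB kinase, IkappaB is degraded, and the dimers enter the nucleus, where they also switch on the genes of their own inhibitors, so the response limits itself. In the vessel wall the pathway is known for driving chemokines and adhesion molecules; its activity is set mostly on proteins that were already made, so transcript levels describe the parts of the pathway and not its activity.

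Marker genes were checked against the smooth muscle label. All 12 smooth muscle markers on the list were above the limit for testing, with Tagln at 2684 ± 284 (SD, n = 3) in static and 2815 ± 93.3 (SD, n = 3) in sheared cells and Acta2 at 1811 ± 157 and 836 ± 89.1 (SD, n = 3). Of these 12, 8 fell under shear and 0 rose. Over all 11248 genes tested 27.8% rose and 30.1% fell, and the marker counts here are to be read against these shares. The endothelial markers Pecam1, Kdr, Vwf and Nos3 and the leukocyte marker Ptprc had group means of at most 4.33, near the lowest signals. Others on these lists were brighter. Of the endothelial markers Egfl7 read 110.5 in static and 79.4 in sheared cells, Erg 44.1 and 40.6 and Flt1 27.8 and 53.6 (group means). Of the leukocyte markers Cd14 read 181.9 and 107.9, and Cd68 10.1 and 25.8. Of 13 endothelial markers with a probe set 5 were tested, of which 1 rose and 1 fell, and of 12 leukocyte markers 5 were tested, of which 2 rose and 1 fell. Summed signals of the endothelial list lay between 232.7 and 259.1 in static and between 220.2 and 240.0 in sheared arrays, and those of the leukocyte list between 218 and 267 in static and between 161.4 and 204 in sheared arrays. Of 9 fibroblast markers tested 2 rose and 5 fell, and what part that or the fall of contractile genes has in the values below was not tested. Some fibroblast markers were bright: Lum read 2494 in static and 2889 in sheared cells, Dcn 1768 and 2350 and Pdgfra 490 and 92.6 (group means). Summed signals of the fibroblast list lay between 5347.3 and 7789.8 in static and between 4352.3 and 7340.8 in sheared arrays. Those of the smooth muscle list lay between 11784.3 and 13176.7 in static and between 8194.6 and 8690.7 in sheared arrays. The markers Coro1a, Lmod1, Twist2 and Dpep1, counted as changed here, passed the limit only through the group where each was higher. In bulk RNA, fewer cells of a type and less RNA per cell cannot be told apart. Sheared array 1 stood apart from sheared arrays 2 and 3 on the second principal component (6.28% of the variance). Without pair 1 the count of changed genes was 7 of the 10 in place of 6. On the list of kinases adaptors and ubiquitin enzymes upstream it was 22 in place of 17 of 35 tested. Among target genes it was 25 of 29 tested in place of 22 of 28, and all these lists are described below. Over all 21729 probe sets tested 13024 changed without pair 1 in place of 11471, so the count rose there as well.

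The promoters were searched for the pathway's own binding motif. NF-kappaB dimers bind the kappaB consensus, a motif of 10 bases that was searched on both strands from 250 bases before to 50 bases after the transcript start in RefSeq sequence of the rat build GRCr8. Of 33469 such promoters 4.18% held it. Of the 10 genes 7 had a promoter in the table, Nfkb1, Nfkb2, Rela, Nfkbia, Nfkbib, Tnfaip3 and Birc2, and 4 of these 7 held a match. The stretches around them are shown because they are the windows among these genes that hold the motif's letters. Nfkbiz, an IkappaB family gene that stood out among the wider pathway, is shown with them and was picked after its values were seen. Each runs 5′ to 3′ on the gene's own strand, with the kappaB matches in capitals.
Nfkb1 (chr2:226805450-226805479, minus strand, ending 13 bases into the transcript): tctgctctctcgacgtcagtGGGAATTTCC
Nfkb2 (chr1:255108334-255108373, plus strand): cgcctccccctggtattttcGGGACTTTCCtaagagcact
Nfkbia (chr6:78597074-78597123, minus strand): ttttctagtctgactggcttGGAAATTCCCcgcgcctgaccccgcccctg
Tnfaip3 (chr1:15544005-15544169, minus strand): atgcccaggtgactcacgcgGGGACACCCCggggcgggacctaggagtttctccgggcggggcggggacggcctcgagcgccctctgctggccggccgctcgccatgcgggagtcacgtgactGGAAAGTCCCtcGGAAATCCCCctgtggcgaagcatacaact
Nfkbiz (chr11:58251688-58251720, plus strand): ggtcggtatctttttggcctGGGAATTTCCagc

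Tnfaip3 held 3 matches, from -170 to -161, -67 to -58 and -55 to -46 counted from the transcript start, and the others 1 each. The match of Nfkb2 lies from -20 to -11, that of Nfkbia from -31 to -22 and that of Nfkb1 from 4 to 13. The promoters of Rela, Nfkbib and Birc2 held no match in this window. The AP-1 motif TGANTCA, found in 7.33% of all promoters and not overlapping a kappaB match here, occurred in Nfkb2 (from -241 to -235), Tnfaip3 (from -181 to -175) and Birc2 (from -128 to -122). A match is a string of letters and not a measured binding site.

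Under shear stress the subunit genes did not move as a block. Rela, Relb and Nfkb2 rose, Nfkb1 fell, and among the inhibitors Nfkbib rose and Tnfaip3 fell, whereas Nfkbia, Ikbkb, Birc2 and Birc3 did not pass the test. The comparison asks which transcripts differ between sheared and static cells, and a gene is said to rise or fall only where limma's test, with the pair as a block, gave a Benjamini-Hochberg adjusted p under 0.05 over all 21729 probe sets tested. By that rule 6 of the 10 genes changed, 4 higher and 2 lower. Over all probe sets tested the shares were 52.8% changed, 24.3% higher and 28.5% lower, so the count of changed genes is near the background of this comparison. The groups did not overlap for the same 6 genes, against 60.0% of all probe sets tested: 4 lay above the static range and 2 below it, against 27.1% and 32.9%. The median change of the 10 genes was 0.19 and that of all probe sets tested -0.07, both on the log2(signal + 16) scale that is used for every change below.

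**Figure D1:**
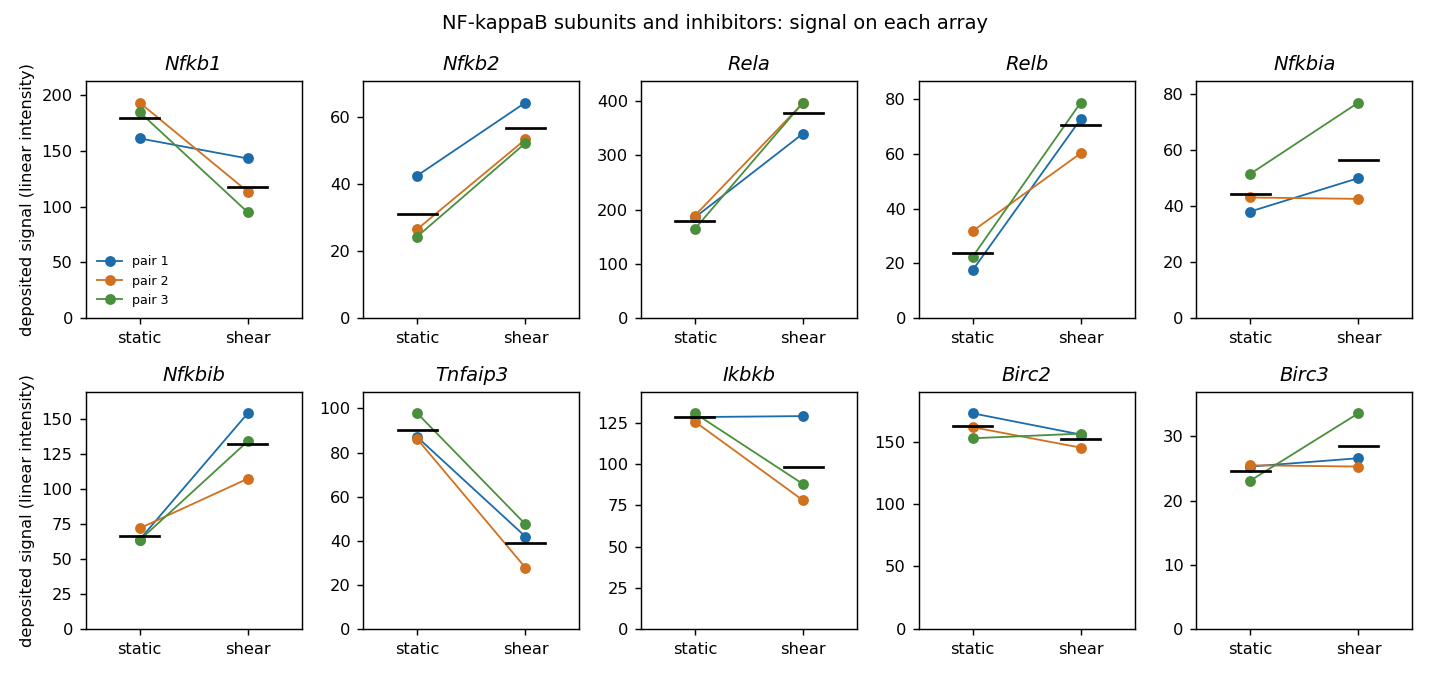
Deposited linear signal of each of the 10 genes in static and sheared cells, 1 panel per gene with its own axis from 0; points joined by a line are 1 pair, and the black bar is the group mean of 3 arrays. Rela, Relb, Nfkb2 and Nfkbib lie higher in all 3 sheared arrays than in any static array, Nfkb1 and Tnfaip3 lower, and the other 4 genes overlap.

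Rela encodes p65, the subunit that carries the transactivation domain of the classical dimer. Its signal was 185.8, 189.3 and 164.8 in static cells of pairs 1 to 3 and 340.4, 396.8 and 397.5 in sheared arrays 1 to 3. The lowest sheared array was far above the highest static one, and the spread within each group was small beside the gap. The means were 180.0 ± 13.3 and 378.2 ± 32.8 (SD, n = 3), a ratio of 2.10. On the log2 scale Rela rose by 1.01 (SE 0.11, 95% interval 0.76 to 1.26, limma adjusted p = 0.00016), with 0.82, 1.01 and 1.19 in pairs 1 to 3. This change exceeded in size that of 85.3% of probe sets tested.

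Nfkb1 encodes p105, the precursor of p50 and the usual partner of p65. It went the other way: its signal was 161.2, 193.3 and 184.8 in static cells and 143.2, 113.5 and 95 in their sheared partners. The groups did not overlap, but sheared array 1 lay close to its static partner. Nfkb1 fell by 0.57 on the log2 scale (SE 0.15, 95% interval -0.91 to -0.22, limma adjusted p = 0.013), with -0.15, -0.69 and -0.86 in pairs 1 to 3. The call depended on single pairs. Without pair 2 the change was -0.50 (limma adjusted p = 0.071) and without pair 3 -0.42 (limma adjusted p = 0.11), so it no longer passed, while without pair 1 it was -0.77 (limma adjusted p = 1.4e-06). Such fits on 2 pairs lean on variance borrowed from other probe sets, so their p-values are not comparable with that from all 3 pairs. The change of Rela exceeded that of Nfkb1 in 3 of 3 pairs, which follows from the rise and the fall already given and adds no evidence.

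Relb and Nfkb2 encode RelB and p100, the precursor of p52, which together form the dimer of the alternative pathway. Relb had signals of 17.5, 31.8 and 22.4 in static and 72.7, 60.2 and 78.7 in sheared arrays 1 to 3. All sheared arrays lay clearly above all static ones, on low static signals. Its mean went from 23.9 ± 7.27 to 70.5 ± 9.44 (SD, n = 3), a ratio of 2.95, and it rose by 1.13 on the log2 scale (SE 0.16, limma adjusted p = 0.00074). The size of this change moved with the constant added before taking logs: 1.55 with 1 and 0.61 with 64 in place of 16.

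Nfkb2 had signals of 42.6, 26.6 and 24.4 in static and 64.4, 53.4 and 52.3 in sheared arrays 1 to 3. The array of pair 1 was the highest in both groups, and the groups did not overlap. The means were 31.2 ± 9.93 and 56.7 ± 6.69 (SD, n = 3), and the log2 change was 0.64 (SE 0.12, 95% interval 0.35 to 0.92, limma adjusted p = 0.0031). With 64 added in place of 16 the change of Nfkb2 was 0.35, and with 1 it was 0.88. The 3 pairs gave 0.46, 0.70 and 0.76. Relb and Nfkb2 both rose, in the fit with all pairs and in each fit that left a pair out.

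**Figure D2:**
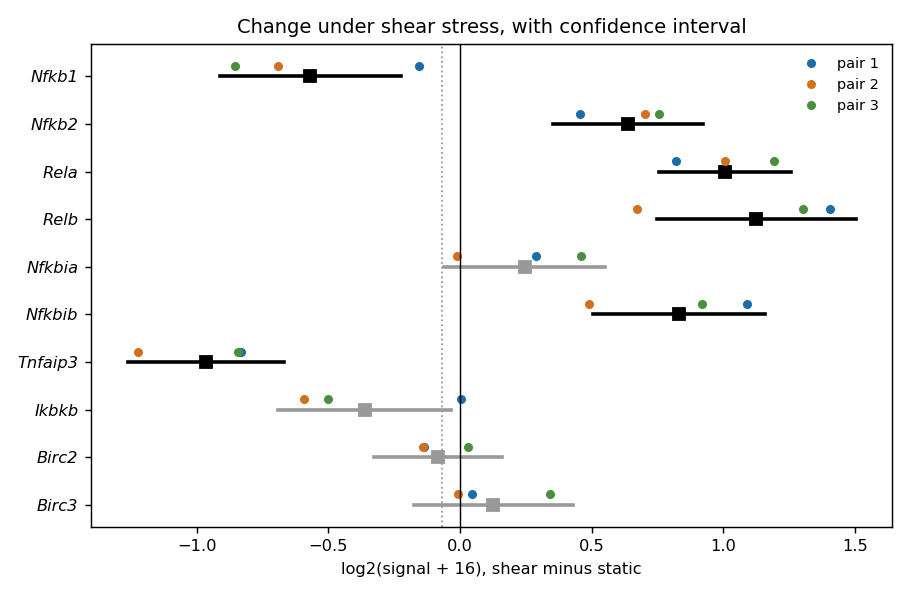
Change of each gene on the log2(signal + 16) scale, shear minus static: squares are the limma estimates with 95% intervals (black where the adjusted p was under 0.05, grey otherwise), coloured points the 3 pairs, and the dotted line the median of all probe sets tested (-0.07). The intervals of Rela, Relb, Nfkb2 and Nfkbib lie above 0 and those of Nfkb1, Tnfaip3 and Ikbkb below it, although the adjusted p of Ikbkb did not pass.

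Of the inhibitors, Nfkbib, which encodes IkappaB-beta, rose. Its signal was 63.7, 71.8 and 63.3 in static and 153.9, 107.2 and 133.9 in sheared arrays 1 to 3. Static arrays were tightly grouped, and each sheared array was above them. The mean went from 66.3 ± 4.80 to 131.7 ± 23.4 (SD, n = 3), a ratio of 1.99, and the log2 change was 0.83 (SE 0.14, limma adjusted p = 0.0016).

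Nfkbia encodes IkappaB-alpha, the inhibitor that NF-kappaB itself resupplies within the classical feedback loop. Its signal was 38.0, 43.0 and 51.4 in static and 49.9, 42.5 and 76.8 in sheared arrays 1 to 3. The groups overlapped: sheared arrays 1 and 2 lay within the static range, and sheared array 3 was above it. The log2 change was 0.25 (SE 0.13, 95% interval -0.06 to 0.55, limma adjusted p = 0.16). It passed as higher after quantile normalization (0.39, limma adjusted p = 0.034) and after median centring (0.39, limma adjusted p = 0.033), so its call depends on the scaling between arrays.

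Tnfaip3 encodes A20, a ubiquitin-editing enzyme that shuts off signalling upstream of the IkappaB kinase and is itself a textbook NF-kappaB target. Its signal was 87.0, 86.1 and 97.8 in static and 41.9, 27.8 and 47.5 in sheared arrays 1 to 3. Every sheared array was below every static one. The means were 90.3 ± 6.51 and 39.1 ± 10.2 (SD, n = 3), with static 2.31 times sheared. Tnfaip3 fell by 0.96 on the log2 scale (SE 0.13, 95% interval -1.26 to -0.67, limma adjusted p = 0.00048), with -0.83, -1.22 and -0.84 in pairs 1 to 3; with 64 added in place of 16 it was -0.59. The genes with a kappaB match went different ways: Nfkb2 rose, Nfkb1 and Tnfaip3 fell and Nfkbia did not pass.

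Ikbkb encodes IKK-beta, the kinase that marks IkappaB for degradation. Its brighter probe set read 128.7, 125.9 and 131.0 in static and 129.3, 78.1 and 88.0 in sheared arrays 1 to 3. Sheared array 1 sat inside the static range, whereas sheared arrays 2 and 3 were below it. The log2 change was -0.36 (SE 0.14, 95% interval -0.69 to -0.03, limma adjusted p = 0.063), with 0.01, -0.59 and -0.50 in pairs 1 to 3. Without pair 1 it passed as lower (-0.55, limma adjusted p = 0.00019), in a fit on 2 pairs. The second probe set read between 1.6 and 8.8 on all 6 arrays, below the limit for testing, and the mean of both Ikbkb probe sets was -0.12 (limma adjusted p = 0.38).

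Birc2 and Birc3 encode the cellular inhibitors of apoptosis, ubiquitin ligases that act at the TNF receptor and restrain the alternative pathway. They are neighbours in the rat genome, with 0 other genes of the gene table between them, and the table gives Birc2 as an older name of Birc3, so the names in older work may not match. The probe set now called Birc2 read 172.7, 161.6 and 152.7 in static and 155.7, 145.2 and 156.4 in sheared arrays 1 to 3. Its log2 change was -0.08 (SE 0.10, 95% interval -0.32 to 0.16, limma adjusted p = 0.54), and the sign turned to 0.07 after median centring. Birc3 read 25.3, 25.5 and 23.1 in static and 26.6, 25.3 and 33.6 in sheared arrays 1 to 3, with a log2 change of 0.13 (SE 0.13, 95% interval -0.18 to 0.43, limma adjusted p = 0.45). Both genes overlapped between the groups. The intervals bound the change that these arrays could have missed.

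**Figure D3:**
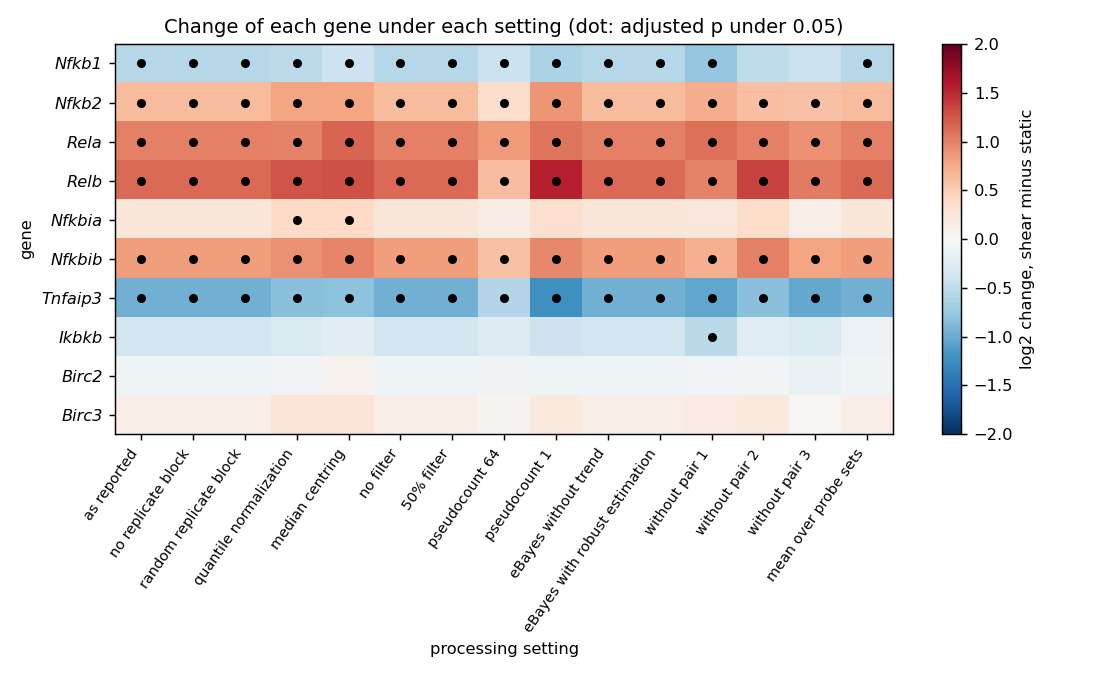
Change of each gene (rows; colour, log2 scale, shear minus static) as reported and under 14 other processing settings (columns), with a dot where the adjusted p was under 0.05. Rela, Relb, Nfkb2, Nfkbib and Tnfaip3 carry a dot in every column, Nfkb1 loses it without pair 2 and without pair 3, Nfkbia gains it under both scalings, and Ikbkb has it without pair 1 alone.

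Around these 10 genes the wider pathway was followed through lists grouped by function, which were chosen with earlier results of these data known. Over all 11248 genes tested, with the brightest probe set standing for a gene, 57.9% changed, 27.8% higher and 30.1% lower, and the median change was -0.05; each list below is to be read against these shares. Of 8 further Rel and IkappaB family genes and their direct regulators, 6 had a probe set, and of these 2 rose, 1 fell and 3 did not pass (median -0.04, or 0.09 after quantile normalization and 0.11 after median centring). Rel and Nfkbie are named on this list and have no value here.

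Nfkbiz, which encodes the nuclear protein IkappaB-zeta needed at a subset of inflammatory promoters, fell furthest. Its signal was 609.6, 386.1 and 414.4 in static and 42.5, 42.3 and 43.7 in sheared arrays 1 to 3. The sheared arrays were nearly identical to each other. Nfkbiz fell by 3.02 on the log2 scale (limma adjusted p = 4.7e-06), and the mean with its second, dimmer probe set was -1.61 (limma adjusted p = 0.00012). Nkiras2, which binds IkappaB proteins and slows their degradation, rose by 0.88 (limma adjusted p = 0.00041). Nkrf, a repressor named for NF-kappaB, rose by 0.72 on its brighter probe set (limma adjusted p = 0.0015), with -0.11 on a second that did not pass. Bcl3, a nuclear IkappaB protein that works with p50 and p52, was at -0.21 on its brightest probe set (limma adjusted p = 0.19); of its 2 other probe sets 1 fell (-0.82) and 1 did not pass (-0.17).

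Upstream kinases, adaptors and ubiquitin enzymes were 40, of which 35 were tested: 13 rose, 4 fell and 18 did not pass, with a median of 0.20. Irak4, 1 of the 4 that fell, passed the limit only through the static arrays, where it was higher. Chuk, the gene of IKK-alpha, read 437.8 ± 38.8 in static and 594.2 ± 56.2 (SD, n = 3) in sheared cells and rose by 0.43 (limma adjusted p = 0.0081), a call lost without pair 3 (0.32, limma adjusted p = 0.11). Ikbkg has no value here. Map3k14, the gene of the kinase NIK that drives the alternative pathway, did not pass at a low signal (-0.09, limma adjusted p = 0.61, and 0.06 under both scalings).

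Tab3, which links ubiquitin chains to the kinase TAK1, rose by 1.88 (limma adjusted p = 1.2e-05), from 46.8 ± 3.64 to 214.8 ± 12.6 (SD, n = 3), and its second probe set rose by 1.03. Tab2, brighter than Tab3, fell by 0.60 (limma adjusted p = 0.0011), from 520.4 ± 7.19 to 339.5 ± 29.7 (SD, n = 3). Tab1 (0.03) and Map3k7 (0.18), the gene of TAK1, did not pass. Tab2, Tab1 and Map3k7 were named after their values were seen. Tbk1, an IKK-related kinase, rose by 1.40 (limma adjusted p = 7.7e-05). Cul1, the scaffold of the ligase that marks IkappaB for the proteasome, rose by 1.08 (limma adjusted p = 2.4e-05).

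Among the TRAF adaptors of receptor signalling, Traf5 fell by 1.78 (limma adjusted p = 1.4e-05), from 126.2 ± 5.44 to 25.3 ± 2.21 (SD, n = 3). Traf2, which recruits Birc2 and Birc3 to the receptor, rose by 0.58 (limma adjusted p = 0.01), but not without pair 2 (0.47, limma adjusted p = 0.068) or pair 3 (0.54, limma adjusted p = 0.055). Traf3, the adaptor through which NIK is destroyed, did not pass on its brighter probe set (-0.19, limma adjusted p = 0.18), while the second rose by 0.46 (limma adjusted p = 0.036) and the mean of both was 0.14.

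**Figure D4:**
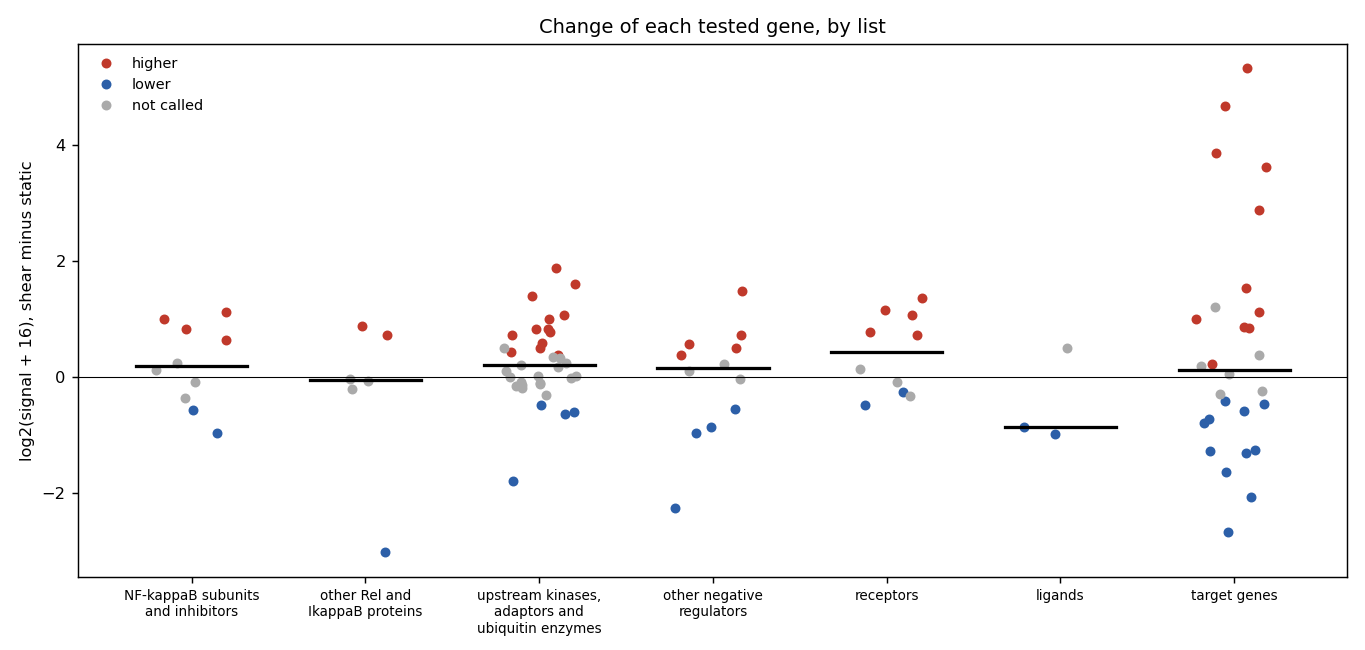
Change of every tested gene on the log2(signal + 16) scale, shear minus static, by list: each point is a gene, red where it rose, blue where it fell and grey where it did not pass, and the bar is the list's median. The 10 genes span -0.96 to 1.13, and the target genes span the widest range.

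Of 19 other negative regulators 12 were tested, and 5 rose, 4 fell and 3 did not pass (median 0.16). Pdlim2, a nuclear protein that directs p65 to degradation, fell by 2.25 (limma adjusted p = 1.1e-05), from 452.4 ± 74.7 to 82.1 ± 8.68 (SD, n = 3). Commd1, which also promotes the degradation of p65, fell by 0.96 (limma adjusted p = 0.00018), and Pias1 fell by 0.87 on its brighter probe set (limma adjusted p = 0.0011), with 0.06 on a second that did not pass. Both Pdlim2 and Commd1 were lower in 3 of 3 pairs, which was a condition for naming them here.

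Tollip, which restrains the interleukin-1 receptor kinases, rose on all 3 of its probe sets, by 1.48 on the brightest (limma adjusted p = 1.7e-05). Cyld, the deubiquitinase that opposes the same chains as A20, fell by 0.54 (limma adjusted p = 0.0068), also on its second probe set (-0.34); without pair 3 the first did not pass (-0.46, limma adjusted p = 0.066). Tnip1, a partner of A20, was at 0.11 and did not pass (limma adjusted p = 0.38).

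Receptors that feed the pathway had 5 risen, 2 fallen and 3 not passing of 10 tested, though 0 fell without pair 2 or without pair 3 and 3 rose when the dimmest 50% of probe sets were left out in place of 30%. Among receptors, median changes were 0.44 as tested, 0.09 with no filter, 0.14 with the 50% limit and 0.19 with 64 added. Of the 5 risen, Tnfrsf1b (2.83 static, 24.2 sheared) and Tnfrsf21 (4.70 and 18.4) passed the limit only through the sheared arrays, so a difference was built into their choice; for Tnfrsf21 its size was 0.26 with 64 added and 1.93 with 1. Tlr4, the lipopolysaccharide receptor, rose by 1.37 (limma adjusted p = 4.5e-05), from 57.2 ± 7.34 to 173.1 ± 19.98 (SD, n = 3). Tnfrsf12a, the receptor of TWEAK, rose by 1.15 (limma adjusted p = 2.2e-05) and the interleukin-1 receptor Il1r1 by 0.79 (limma adjusted p = 0.0011). The TNF receptor Tnfrsf1a fell by 0.25 (limma adjusted p = 0.043), and this did not pass without pair 2, without pair 3, without the filter, without the intensity trend or after median centring (-0.10).

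Of 14 ligands 12 had a probe set and 3 were bright enough to be tested, of which 2 fell, 0 rose and 1, Il33, did not pass; with so few genes no median is given. Il33 passed as higher without pair 1. Tnfsf12, the gene of TWEAK, fell by 0.98 (limma adjusted p = 0.00023) while its receptor rose. Hmgb1, a chromatin protein that signals when released, fell by 0.85 (limma adjusted p = 0.0001), or by 0.48 as a mean over its probe sets. Tnf read 2.80 ± 1.82 and 4.97 ± 3.20 and Il1b 3.83 ± 0.95 and 9.27 ± 1.65 (SD, n = 3) in static and sheared cells, both below the limit for testing, where a low signal cannot be told from background.

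Of 40 genes known as NF-kappaB targets in various cells 28 were tested: 11 rose, 11 fell and 6 did not pass, with a median of 0.13, or -0.03 without pair 1. Mmp3, 1 of the 11 that rose, passed the limit only through the sheared arrays. The most clearly changed were the chemokines Ccl2 (5.32, limma adjusted p = 5.4e-06) and Ccl7 (3.62, limma adjusted p = 4.9e-06), the protease gene Plau (3.86, limma adjusted p = 1.1e-05) and, in the other direction, Tnfaip8 (-2.07, limma adjusted p = 1.4e-05). Plau had a low mean in static cells (9.73) and Tnfaip8 in sheared cells (8.87), so the sizes moved with the constant added. With 64 added Plau was at 2.53 and Tnfaip8 at -1.06, and with 1 added they were at 5.07 and -3.23. Sod2, the mitochondrial superoxide dismutase, rose by 1.12 (limma adjusted p = 6.8e-05).

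The adhesion molecules of leukocyte recruitment went apart. Vcam1 read 1298.7, 1435.3 and 1535.9 in static and 345.1, 695.9 and 826.6 in sheared arrays 1 to 3 and fell by 1.26 (limma adjusted p = 0.00055), or by 0.95 without pair 1. Icam1 was 0.23 higher (limma adjusted p = 0.033), which did not pass after quantile normalization (0.16, limma adjusted p = 0.1), without the intensity trend, without pair 2 or without pair 3. Il6 did not pass (1.20, limma adjusted p = 0.051), with -0.48 in pair 1 and 1.98 and 2.11 in pairs 2 and 3; without pair 1 it passed (2.04), as it did without the block, with a random block, after median centring and with 64 added before logs.

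Likeness of pattern was measured as the root mean square distance between log2 profiles over the 6 arrays, each centred on its own mean, among 15979 probe sets with 1 symbol. Nearest to Tnfaip3 were Paxbp1 (0.072) and Dpm3 (0.078), which fell by 0.93 and 0.95. The distance takes in the difference between the groups, so neighbours of Tnfaip3 had to fall by a like amount. Nearest to Nfkbia were Tinf2 (0.062) and Foxq1 (0.078), and nearest to Birc3 were E2f4 (0.042) and Lsm12 (0.049). For Nfkbia and Birc3, whose changes were small, such a distance mostly finds other genes with small changes.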

How the data were processed

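The deposited intensity values, 1 per probe set on a linear scale, were made by the authors with MAS5, per the submitters' processing notes, with the version not given in the sources here. They were used as deposited, since the arrays were already scaled to each other (mean 99.1 to 99.8 without the outer 2% at each end), and no detection calls were used. Of 31099 probe sets 57 were controls; of the other 31042, 20826 had 1 symbol in the platform annotation, 436 several and 9780 none, and 0 with several named a member. A gene table of assembly GRCr8 matched 20764 by identifier and changed 0 symbols.

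From these, log2(signal + 16) was computed, because 3 to 10 values per array were 0. Changes of dim genes are understated on this scale. Probe sets in the dimmest 30% by mean (under 4.50) were left out, leaving 21729. Sheared and static cells were compared by limma 3.58.1 under R 4.3.3 (lmFit, eBayes with an intensity trend), with a fixed block for the pair, two-sided, adjusted over all probe sets tested. The pairing is from the labels and the series design; deviations from group means correlated by 0.071, 0.065 and 0.063 within pairs. The number of arrays limits the precision. The fit was tested on simulated data.

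The brightest probe set stood for a gene. Members and lists were chosen with earlier results of these data known. Named were all members, up to 4 genes per list with the smallest p that passed with 1 sign in all pairs, 21 preset genes, and the 2 nearest profiles of Nfkbia, Tnfaip3 and Birc3. Alternatives were the pair as a random block or not at all, median centring, quantile normalization, a 50% filter or none, 64 or 1 added, eBayes without trend or robust, each pair left out, and the mean over probe sets. Figures were drawn with matplotlib 3.10.9 (Python 3.11.15).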

Additional observations from a re-analysis of the deposited data

How the results depend on the processing

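Rela, Relb, Nfkb2, Nfkbib and Tnfaip3 kept their direction and call in all 14 alternatives, and the count of changed genes among the 10 was 5 to 7. With a pair left out Nfkb1 ranged from -0.77 to -0.42 and Ikbkb from -0.55 to -0.25, in fits with 1 residual degree of freedom that lean on variance borrowed from other probe sets. After quantile normalization and after median centring Nfkbia passed as higher (0.39 in both), and after median centring Birc2 turned to 0.0675. Map3k14 turned to 0.0587 after quantile normalization and 0.0638 after median centring, and Traf3 to 0.14 as a mean over its probe sets; none of these turned values passed. The causes were not tested. With 64 added in place of 16 the changes of Relb, Nfkb2, Tnfaip3, Nkrf, Nkiras2, Traf2, Traf5, Cyld, Tnfrsf21, Plau and Tnfaip8 were smaller by over 1.5 times, and each still passed. As means over probe sets Nkrf was 0.31 and Pias1 -0.40. Without the replicate block the same count of 6 changed, with Nfkb1 at an adjusted p of 0.0074, and no call among the 10 changed; Il6 passed (1.20, limma adjusted p = 0.042). Median centring moved the median of all probe sets from -0.07 to 0.08 and the share of higher among changed probe sets from 46.1% to 59.1%, so changes of that size depend on the scaling. Low signals (Relb, Nfkb2, Birc3, Map3k14, Tnf, Il1b) limit what could be seen.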

Other observations

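The kappaB consensus was no more frequent in promoters of changed genes than of the others, by share and with no test. Of tested genes with a promoter in the table, 4.95% of 2668 that rose, 5.06% of 2844 that fell and 5.70% of 3858 that did not pass held a match. Among 496 tested genes with a match the median change was -0.08, and among 8874 without one -0.05. On the list of target genes 7 of 21 with a promoter held a match, and of these 0 rose, 3 fell (Vcam1, Irf1 and Cxcl10) and 4 did not pass, Il6 and Cxcl1 among them. Of all 496 tested genes with a match 132 rose, 144 fell and 220 did not pass, and no difference of the 7 from these was tested. Irf1, an interferon regulatory factor, fell by 1.63 (limma adjusted p = 6.3e-05) and Cxcl10, a chemokine, by 0.47 (limma adjusted p = 0.018). Irf1 and Cxcl10 were named after their values were seen, and Vcam1 was among the 21 preset genes.

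Some adaptors and kinases of the toll-like, interleukin-1 and TNF receptors were picked after their values were seen, and no count is drawn from them. Myd88, an adaptor of toll-like and interleukin-1 receptors, rose by 0.84 (limma adjusted p = 0.00089), Tirap by 0.84 (limma adjusted p = 0.0005) and Traf6 by 1.60 (limma adjusted p = 0.00046, on all 4 of its probe sets). Irak4 fell by 0.48 (limma adjusted p = 0.031), at a low signal that passed the limit only through the static arrays. Irak1 (-0.01), Irak2 (0.50), Ticam1 (0.10), Tradd (-0.12), Fadd (-0.004), Ripk2 (0.32), Rbck1 (-0.31) and Rnf31 (0.20) did not pass. Ripk1, the kinase at the TNF receptor, rose by 1.00 (limma adjusted p = 0.00029), while Sharpin, a subunit of the linear ubiquitin ligase, fell by 0.63 (limma adjusted p = 0.0024).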
